A study of Danio rerio with 6 samples.

Results

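The cadherin superfamily genes of the table were taken by symbol: names that begin with cdh, pcdh, fat, dchs, celsr or clstn followed by a digit. Of 14781 genes, 78 had such a name, and 58 of these, called members here, reached 10 normalized counts in 3 or more of the 6 libraries. RNA came from thrb:tdTomato+ cells, sorted from eyes of zebrafish larvae at 5 days post-fertilization, in 3 wild-type (WT) libraries and 3 libraries labelled samd7-/-. In both groups 1 parent was thrb:tdTomato+/- and larvae with the reporter were chosen. The reporter is a red fluorescent protein driven by regulatory sequence of the thyroid hormone receptor gene thrb, which marks red cones. WT clutches came from WT parents and mutant-labelled clutches from crosses between stl888 homozygotes, stl888 being an allele of samd7, a photoreceptor gene related to Polycomb repressors, so genotype and parental line cannot be told apart. Each library pooled the eyes of 20 to 25 larvae of its own clutch, and only some larvae of a clutch were genotyped, per the labels. The question was how this allele relates to cone identity. A normalized count is a read count divided by the authors' size factor for that library.

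Cadherins are membrane proteins whose extracellular repeats bind calcium and join neighbouring cells. Classical cadherins such as N-cadherin hold cells together through catenins and actin, while protocadherins give neurons adhesion and recognition codes. The giant fat and celsr cadherins act in tissue polarity and neurite patterning, and calsyntenins are cadherins of the synapse and of vesicle transport. In photoreceptors, cadherin-related proteins of the Usher group and the photoreceptor cadherin Cdhr1 are known from the outer segment and the processes around it.

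The sorted cells had high levels of red-cone RNA in WT, the cell type the reporter marks. The summed level of 4 red-cone markers was lower under the samd7-/- label, at 0.346 of the WT mean with no overlap, though of its 4 genes 2 fell and 1, the red opsin opn1lw1, rose. All 6 tested genes common to all cones fell. Recovered reads per library ran from 13435570 to 18911482 (WT) and from 18418834 to 20369266 (samd7-/-). The level of samd7 itself was higher in all 3 mutant-labelled libraries (23712 to 24733 against 7075 to 8711), and the labels do not say how the allele acts on its transcript, so this does not check the genotype. WT library 2 and mutant-labelled library 3 stood apart from the rest of their groups on the second principal component (-75.5 and -75.0, against 5.15 to 66.1). In bulk RNA, a change in the number of cells of a type and a change in RNA per cell cannot be told apart.

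Of the 58 members 5 rose and 0 fell in samd7-/- libraries. Those that rose were the giant cadherin fat1a, the type II cadherin cdh6 and the non-clustered protocadherins pcdh19, pcdh8 and pcdh10a. Across all 9886 genes tested, 5.17% were called, 1.26% as higher and 3.9% as lower (limma, Benjamini-Hochberg adjusted p under 0.05). The members that rose were 8.62% of their group. When libraries were scaled by their totals, 62.2% of all calls were higher, against 24.5% under the authors' scaling, and the median log2 difference of all genes moved by 0.23. The same 5 members were called under both scalings. The authors' deposited table also has an adjusted p under 0.05 for 5 of the names, and these were the same 5 genes.

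The other 53 members had no call. A positive log2 difference was found for 41 of the 58 (70.7%), against 52.4% of all genes tested, and the median was 0.39 against 0.05. All 3 mutant-labelled values lay above all 3 WT values for 11 members (19.0%), and for 12.1% of all genes. The reverse was found for 0 members and for 12.4% of all genes. The 5 called members count among the 41 and among the 11, so the members' shares and median do not describe the other 53 alone. Clustered protocadherins gave 28 of the 41 and 2 of the 11, and how reads in their shared exons were assigned is not known. Relative to the median of all genes, the members' median was 0.34 under both scalings. A rescaling moves nearly all genes alike, so that agreement was close to fixed in advance. The members' median itself was 0.30 in edgeR and in DESeq2, and between 0.29 and 0.59 with 1 library left out. All 6 libraries held at least 10 normalized counts for 36 members. Another 10 reached that level in all 3 mutant-labelled libraries but fewer WT ones, and 5 in all 3 WT libraries but fewer of the other group.

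**Figure D1:**
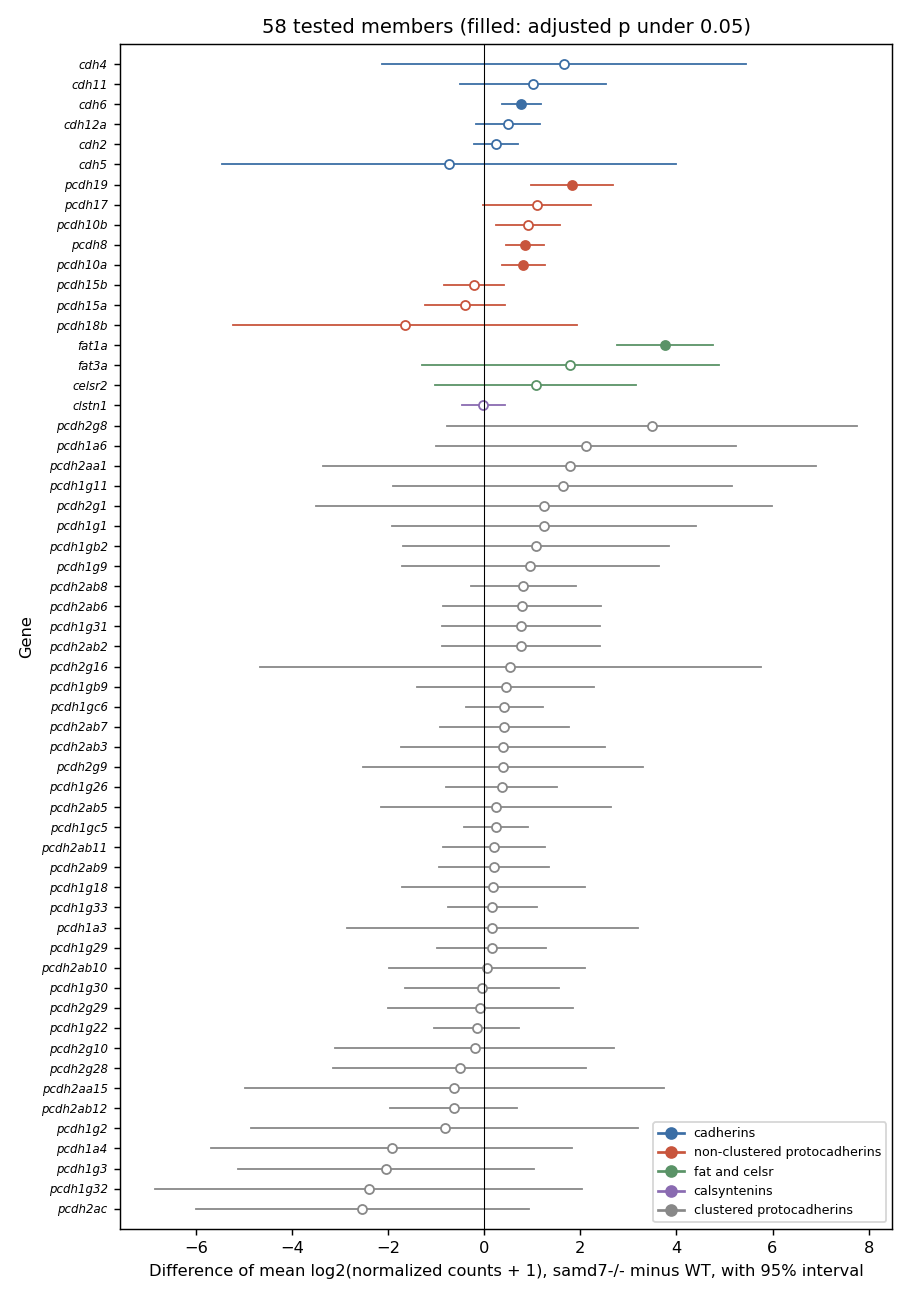
Difference of mean log2(normalized counts + 1), samd7-/- minus WT, for each of the 58 members, grouped by subfamily and sorted within it; lines are 95% intervals and filled points passed at an adjusted p under 0.05. The 5 filled points all lie to the right of 0, and the clustered protocadherins, which have none, spread on both sides with wide intervals.

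The largest rise was that of fat1a, a giant atypical cadherin whose mammalian relatives act in polarity and in the actin cytoskeleton. Its levels were 46.9, 92.6 and 116 normalized counts in WT libraries 1 to 3 and 761, 1688 and 1004 in mutant-labelled libraries 1 to 3. Even the lowest mutant-labelled value was several times the highest WT one. The mean went from 85.1 ± 35.1 to 1151 ± 481 (SD, n = 3), 13.5-fold (log2 change 3.76, SE 0.47, adjusted p = 0.000374, limma). With any 1 library left out the log2 change lay between 3.38 and 4.02, and the call held. Of the alternatives run, limma without the mean-variance trend and robust options, which called 27 genes in the whole table, was the only one to lose it (adjusted p = 0.0841).

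Both other giant cadherins also had no overlap between the genotypes, without a call. Their levels were far below those of fat1a in the mutant-labelled libraries, but in WT celsr2 was nearer to it (mean 50.3 against 85.1). For fat3a, known in the mouse from the shaping of amacrine cell dendrites, the WT libraries held 13.2, 5.85 and 14.6 normalized counts and the mutant-labelled ones 31.4, 88.9 and 20.9. All 3 mutant-labelled values were higher, the lowest of them only just (log2 difference 1.80, 95% interval -1.30 to 4.90, adjusted p = 0.556, limma). For celsr2, a planar polarity cadherin, WT libraries held 67.4, 70.2 and 13.3 and mutant-labelled libraries 80.1, 85.9 and 90.7. WT library 3 was low, and without it the log2 difference went from 1.07 to 0.31 (adjusted p = 0.609 with all libraries, limma). The name rule also covered dachsous genes (dchs), but the 78 matching names held none.

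Among the non-clustered protocadherins, pcdh19 had the largest rise. This gene, whose human counterpart is linked to an epilepsy, is known in the zebrafish brain from the building of neuronal columns. Its levels were 156, 113 and 174 normalized counts in WT and 533, 489 and 537 in samd7-/- libraries. The values were close within each genotype and far apart between them: 148 ± 31.5 against 519.7 ± 27.0, or 3.51-fold (log2 change 1.83, SE 0.40, adjusted p = 0.0168, limma). The call was lost without WT library 2 (adjusted p = 0.0642, limma), mutant-labelled library 1 (0.0775) or mutant-labelled library 2 (0.0552). With any 1 library left out, kept calls included, the log2 change stayed between 1.65 and 1.96.

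The protocadherin pcdh8, a counterpart of the mammalian synaptic protein arcadlin and of the paraxial protocadherin of early embryos, rose less. Levels were 2735, 3372 and 2830.0 normalized counts in WT and 5536, 5932 and 4595 in samd7-/- libraries. Every mutant-labelled library was above every WT library, 1.80-fold on average (log2 change 0.84, SE 0.19, adjusted p = 0.0169, limma). Without WT library 1 or 3, or mutant-labelled library 1 or 2, its adjusted p in limma was 0.0751, 0.0656, 0.0779 and 0.0590. Over all fits with 1 library left out, kept calls included, the log2 change ran from 0.77 to 0.95.

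The paralogs pcdh10a and pcdh10b, delta-2 protocadherins named for a mammalian gene of axon growth, were both higher in every mutant-labelled library. For pcdh10a WT libraries held 3828, 4473 and 4371.5 normalized counts and mutant-labelled libraries 8209, 5418 and 9132. Mutant-labelled library 2 lay nearest to WT, and the rise was 1.80-fold (log2 change 0.81, SE 0.21, adjusted p = 0.0364, limma). For pcdh10b WT libraries held 571, 1024 and 1507 and mutant-labelled libraries 1671, 2190.3 and 1614. WT library 3 reached almost the mutant-labelled range, and the difference of 0.91 did not pass (95% interval 0.24 to 1.59, adjusted p = 0.121, limma). It passed without WT library 3 (log2 change 1.24, adjusted p = 0.0422, limma) and was 0.54 without WT library 1 (adjusted p = 0.324, limma), and it passed with no other library left out. The call of pcdh10a was lost when any 1 library other than mutant-labelled library 2 was left out, with an adjusted p in limma between 0.0731 and 0.148. It was also lost with no filter on low values (0.0527).

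**Figure D2:**
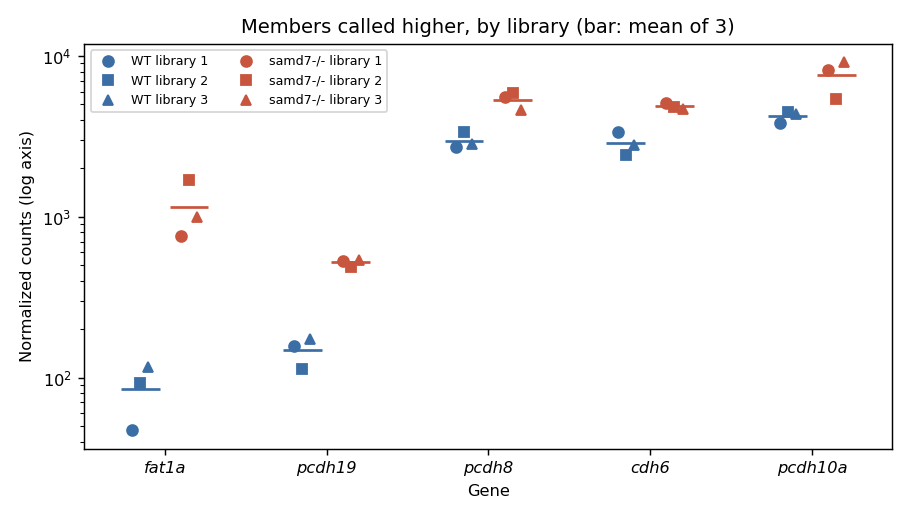
Normalized counts (log axis) of the 5 members that rose, in each library, with a bar at the mean of the 3 libraries of a genotype. All 3 mutant-labelled libraries lie above all 3 WT libraries for each gene, with ratios of the means from 1.69 (cdh6) to 13.5 (fat1a).

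The remaining non-clustered protocadherins had no call. For pcdh17, a delta-2 protocadherin of synapses and axon bundles, WT libraries held 99.8, 361 and 483 normalized counts and mutant-labelled libraries 632, 709 and 390. The groups overlapped because mutant-labelled library 3 was below WT library 3 (log2 difference 1.104, 95% interval -0.02 to 2.23, adjusted p = 0.272, limma). It moved to 0.42 without WT library 1, the lowest library. For pcdh18b WT libraries held 132, 66.3 and 95.8 and mutant-labelled libraries 156, 176 and 0, where a count of 0 allows up to 2.62 normalized counts for counting error alone. Mutant-labelled library 3 thus stood apart from both others of its group.

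Neither paralog of the Usher cadherin Pcdh15 passed. In zebrafish, pcdh15a is known from hair cells of the ear and pcdh15b from photoreceptors. For pcdh15b WT libraries held 1251, 1147 and 1414 normalized counts and mutant-labelled libraries 693, 1203 and 1584. Mutant-labelled libraries lay both below and above the WT range (log2 difference -0.21, 95% interval -0.83 to 0.42, adjusted p = 0.765, limma). Its sign changed with scaling by library totals (0.03). For pcdh15a WT libraries held 422, 727 and 318 and mutant-labelled libraries 379.8, 389 and 293. WT library 2 was the high value, and the difference was -0.39 (95% interval -1.22 to 0.44, adjusted p = 0.643, limma). Their partner cdh23, which joins Pcdh15 in the hair-cell tip link, was below the filter, with 2.41, 0 and 1.33 normalized counts in WT and 26.4, 16.4 and 0 in samd7-/- libraries.

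Of 6 tested members named cdh, 1 rose. This was cdh6, a type II cadherin known from the neural crest and the kidney and, in the mouse, from subsets of retinal neurons. Levels were 3386, 2407 and 2806 normalized counts in WT and 5078, 4797 and 4699 in samd7-/- libraries. The mutant-labelled values were close together and all above WT, 2866 ± 492 against 4858 ± 197, or 1.69-fold (log2 change 0.77, SE 0.19, adjusted p = 0.0280, limma). The call was lost without WT library 2 (adjusted p = 0.154, limma) or 3 (0.0831) and without mutant-labelled library 1 (0.112) or 2 (0.0617). Over all 6 fits with 1 library left out, kept calls included, the log2 change ran from 0.66 to 0.90.

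N-cadherin, encoded by cdh2 and the main classical cadherin of neurons and the retinal neuroepithelium, did not share in this rise past the test. WT libraries held 1420.4, 1549 and 1596 normalized counts and mutant-labelled libraries 2149, 1852 and 1482. The groups overlapped through mutant-labelled library 3, and the log2 difference was 0.25 (95% interval -0.21 to 0.71, adjusted p = 0.588, limma). For cdh12a, a neuronal type II cadherin, the levels were 439, 365 and 508.5 in WT and 611, 591 and 643 in samd7-/-. All 3 mutant-labelled values were higher, but the difference of 0.50 did not pass (95% interval -0.16 to 1.17, adjusted p = 0.421, limma).

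The lower cadherins varied from library to library. For cdh11, a type II cadherin of mesenchyme and brain, WT libraries held 90.2, 49.7 and 91.8 normalized counts and mutant-labelled libraries 313, 120.3 and 91.5, mutant-labelled library 1 being the high value (log2 difference 1.01, adjusted p = 0.490, limma). For cdh4, the retinal R-cadherin, WT libraries held 32.5, 0 and 55.9 and mutant-labelled libraries 137, 17.9 and 21.8. Its sign depended on 1 library: the log2 difference was 1.66 with all libraries and -0.16 without WT library 2. For cdh5, the cadherin of blood vessel walls, the values were 40.9, 0 and 59.9 in WT and 39.6, 12.7 and 0 in samd7-/- libraries. The vessel markers kdrl and pecam1 were likewise between 0 and 81.8 in every library.

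The 40 clustered protocadherins made up most of the members by number, and 0 of them passed the test (limma; 0 had an unadjusted p under 0.05, against 19.1% of all genes tested). In zebrafish these genes lie in the pcdh1 and pcdh2 clusters, each with an alpha and a gamma part. A clustered gene is a variable first exon, with its own promoter, that is spliced to constant exons shared by its part of the cluster, and neurons use different sets of them as surface labels. In the RefSeq gene models of assembly GRCz12tu, a different build from the authors' danRer10, 43 of the 51 clustered names were matched and 40 of these shared 1 end of the model with the others of their part, to within 10 bases. How reads in shared exons were assigned is not given in the sources used here, so the level of each such gene is uncertain and may count its variable exon alone.

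The summed level of the clustered members differed little between genotypes. It was 4944, 5687 and 5900 normalized counts in WT libraries 1 to 3 and 6666, 7230.5 and 4535 in mutant-labelled libraries 1 to 3. Mutant-labelled library 3 was the lowest and library 2 the highest of all 6, so the mutant-labelled range enclosed that of WT. The means were 5510.2 ± 501 and 6144 ± 1422 (SD, n = 3), a ratio of 1.11. By part, the 17 pcdh1 gamma members summed to 3796 ± 374 and 4263 ± 1283, the 13 pcdh2 alpha members to 1453 ± 187 and 1568 ± 92.7, the 7 pcdh2 gamma members to 187 ± 70.6 and 221 ± 72.5, and the 3 pcdh1 alpha members to 74.5 ± 20.7 and 91.2 ± 11.9.

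The same gene, pcdh1gc5, held the highest share of this sum in each of the 6 libraries, 20.6% ± 4.66 in WT and 22.4% ± 6.74 in samd7-/- libraries. Its levels were 1266, 933 and 1166 normalized counts in WT and 1197, 2184 and 869 in samd7-/-. Mutant-labelled library 2 was high and the groups overlapped (log2 difference 0.24, 95% interval -0.42 to 0.90, adjusted p = 0.738, limma). Its neighbour in the annotation, pcdh1gc6, held 6.58% ± 1.45 and 7.96% ± 1.16. Shares are of assigned reads and are not corrected for length, so they do not rank the genes by transcript number.

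**Figure D3:**
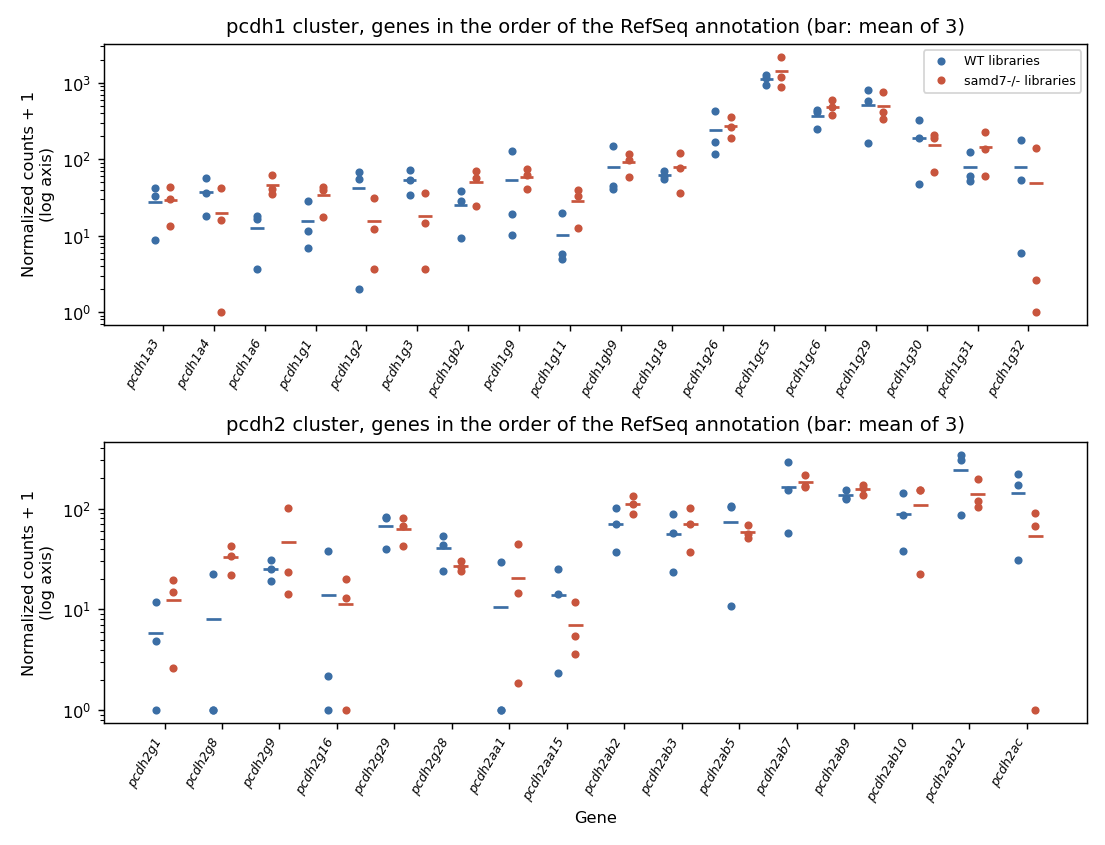
Normalized counts plus 1 (log axis) of the clustered protocadherin members that matched RefSeq, in annotation order within the pcdh1 (top) and pcdh2 (bottom) clusters; points are libraries and bars the means of 3. The genotypes overlap for nearly all genes. In mutant-labelled library 3, pcdh2ac, pcdh1g32 and pcdh1a4 are at 0. Genes at 0 in a WT library are pcdh2aa1, pcdh2g8, pcdh2g1 and pcdh2g16, the last also in mutant-labelled library 1.

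Clustered members varied widely between libraries of 1 genotype. Per the labels, each library was made from 300 pg of RNA, with 14 cycles for cDNA and 15 for the library. The part of this small input in the variation was not tested. Values differed at least 5-fold within a genotype for 19 of the 40 (47.5%), against 1 of 8 non-clustered protocadherins and 28.7% of all genes tested. The median residual SD on the log2 scale was 0.95, against 0.45 and 0.55, but the median level was also lower, 64.7 normalized counts against 830.4 and 303. An example is pcdh1g32, with 52.9, 4.88 and 174 normalized counts in WT and 1.65, 140.4 and 0 in samd7-/- libraries. High and low values occurred in both genotypes, so its log2 difference of -2.40 had a 95% interval from -6.84 to 2.03 (adjusted p = 0.585, limma). With 1 library left out it lay between -4.55 and -0.98, and edgeR gave -0.70. In contrast pcdh2ab9 was close to constant, with 126, 153 and 124 in WT and 159, 136 and 169 in samd7-/-. Its residual SD was 0.16.

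The largest differences among the clustered members were likewise within their error. For pcdh2g8 WT libraries held 0, 0 and 21.3 normalized counts and mutant-labelled libraries 33.0, 41.8 and 20.9. This gene passed the filter through the mutant-labelled libraries, and the lowest of these was below WT library 3 (log2 difference 3.49, adjusted p = 0.377, limma). For pcdh1a6 all 3 mutant-labelled values, 39.6, 34.4 and 60.2, lay above the WT values of 16.8, 15.6 and 2.66 (difference 2.11, 95% interval -1.01 to 5.24, adjusted p = 0.483, limma). The alpha-type gene pcdh2ac had the lowest difference, -2.53, from 30.1, 218 and 172 in WT and 66.1, 89.6 and 0 in samd7-/- libraries (adjusted p = 0.438, limma). Without mutant-labelled library 3, where it was at 0, that difference was -0.44. The remaining clustered members among the 10 largest differences were low in some libraries. For pcdh1g3 WT libraries held 32.5, 72.2 and 51.9 normalized counts and mutant-labelled libraries 34.7, 13.4 and 2.62 (difference -2.04, adjusted p = 0.495, limma). For pcdh1a4 WT libraries held 34.9, 55.6 and 17.3 and mutant-labelled libraries 41.3, 14.9 and 0 (-1.93, adjusted p = 0.607, limma). For pcdh2aa1 WT libraries held 28.9, 0 and 0 and mutant-labelled libraries 43.8, 13.4 and 0.87 (1.78, adjusted p = 0.750, limma), and with 1 library left out the difference lay between 0.75 and 3.41. In each of these 3 genes the genotypes overlapped.

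For pcdh2ab8, another of the genes without overlap, WT libraries held 275, 211 and 83.9 normalized counts and mutant-labelled libraries 294, 293.6 and 310.4. The mutant-labelled values were within a narrow range and the WT values were not (difference 0.82, 95% interval -0.27 to 1.90, adjusted p = 0.427, limma). For pcdh1g29 the values were 162, 807 and 572 in WT and 751, 409 and 337 in samd7-/-, with full overlap. For pcdh1g33 they were 498, 394 and 311 in WT and 744, 496 and 237 in samd7-/- libraries, where mutant-labelled library 1 was the highest and library 3 the lowest of all 6.

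Of the calsyntenins, clstn1 was tested. This membrane protein links cargo vesicles to kinesin in axons and is found at synapses. Levels were 13079, 22604 and 23320.4 normalized counts in WT and 18184, 17999 and 20404 in samd7-/- libraries. The mutant-labelled values fell inside the WT range, and the log2 difference of -0.02 had a 95% interval from -0.46 to 0.43 (adjusted p = 0.979, limma). Scaling by library totals gave 0.22. The second name, clstn2, was below the filter, with 21.6 normalized counts in WT library 1, 3.74 in mutant-labelled library 2 and 0 elsewhere.

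The 20 names below the filter were 7 of 13 cdh names, 11 of 51 clustered protocadherins, pcdh18a and clstn2. Genes just inside the filter included pcdh2g16, with 1.20, 0 and 37.3 normalized counts in WT and 0, 12.0 and 19.2 in samd7-/-. They also included pcdh2aa15, with 13.2, 24.4 and 1.33 and then 10.7, 4.48 and 2.62. Among those just outside it was pcdh2g13, with 9.62, 6.83 and 13.3 and then 8.26, 11.2 and 0. E-cadherin, encoded by cdh1 and typical of epithelia, had 123 normalized counts in WT library 1 and 0 in each of the other 5 libraries. The same WT library had the highest level of 8 markers of lens, cornea and skin epithelium, 17329 against 1406 to 5652 in the others, and of epcam, 565 against 0 to 67.7. Also above 10 in that library alone were clstn2 (21.6) and pcdh2g17 (12.0). The other WT libraries held 7.80 and 5.32 for pcdh2g17, and the mutant-labelled ones 0.83, 1.49 and 1.74. All its WT values thus lay above the mutant-labelled ones, at low levels, and as a name below the filter it was not tested. WT library 2 alone held cdh7 above 10 (85.8), and mutant-labelled library 2 alone pcdh2aa3 (76.2) and pcdh2g6 (11.2). Mutant-labelled library 1 alone held cdh18a (42.1), pcdh2ab1 (25.6) and pcdh18a (10.7) above 10.

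Partners of cadherins were taken from fixed lists. Of 18 names for catenins and other cytoplasmic partners, which tie cadherins to actin, 8 were tested and 0 passed (limma; 2 had an unadjusted p under 0.05). All 8 differences were positive, from 0.12 to 2.33 with a median of 0.58, against 0.05 for all genes tested. Of 12 tested partners of celsr genes in planar polarity 0 passed (1 unadjusted, median 0.38), and of 12 tested genes of the fat and hippo pathway 0 passed (1 unadjusted, median -0.16). Of 6 tested Usher complex genes 0 passed (2 unadjusted, median -0.18).

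Single genes of the other adhesion lists were called in both directions. The photoreceptor cadherin cdhr1a, a cadherin-related gene of the outer segment base whose name falls outside the rule, fell from 5077, 6911 and 6038 normalized counts in WT to 2214, 1952 and 4247 in samd7-/- libraries. All 3 mutant-labelled values were lower (log2 change -1.18, SE 0.26, adjusted p = 0.0179, limma). The second of the 2 genes tested from the list of cadherin-related and desmosomal genes, the receptor kinase gene ret, had a log2 difference of 1.004 with no overlap, and it was not called. Among 10 tested partners of calsyntenins 1 rose and 0 fell (median -0.19): the kinesin heavy chain gene kif5aa went from 866 ± 166 to 1771 ± 82.4 (log2 change 1.05, adjusted p = 0.0187, limma). Of 18 tested nectins and other immunoglobulin-type adhesion genes 2 rose and 1 fell (median 0.59). The nectin gene listed as pvrl3b, an older symbol of nectin3b, rose from 150.3 ± 44.9 to 538 ± 64.8 (log2 change 1.86, adjusted p = 0.0168, limma), as did the junctional gene jam2a (2.92, adjusted p = 0.00833). The nectin gene pvrl1a, an older symbol of nectin1a, fell from 1949 ± 277 to 833 ± 247 (log2 change -1.26, adjusted p = 0.0137, limma).

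Markers of other retinal cells moved in the same libraries as the 5 members that rose. The 8 horizontal cell markers summed to between 13731 and 16898 normalized counts in WT and between 19566 and 25029 in samd7-/- libraries, a ratio of the means of 1.502, and 2 of them rose. The ratio was 1.337 for 9 amacrine markers (3 rose; 14922 to 21507 against 21217 to 25677, an overlap), 1.75 for 7 Müller glia markers (1 rose; 31989 to 41548 against 49729 to 80915) and 1.72 for 10 markers of dividing cells (3 rose; 11775 to 14739 against 21799 to 23831). For 8 ganglion cell markers it was 1.49 (0 rose; 596 to 942 against 969 to 1445). For the sum of 9 bipolar cell markers it was 0.736 (0 called; 6235 to 8219 against 4274 to 7015), although 6 of the 7 tested had positive differences with a median of 1.03. It was 0.574 for 8 rod markers (0 called), where the WT range of 16272 to 88314 enclosed the mutant-labelled range of 17326.5 to 67887. The ratio was 1.13 for 6 pigment epithelium markers, 0.519 for 8 epithelium markers and 0.854 for 6 vessel, blood and microglia markers, with overlap and 0 called in each. Of the neuron and glia markers, grm6a was at 0 in all 3 WT libraries and chata in all 3 mutant-labelled ones. The ratios of the means of cdh6 (1.69), pcdh8 (1.80) and pcdh10a (1.80) stand beside these values of up to 1.75, while those of pcdh19 (3.51) and fat1a (13.5) were larger than any of the summed ratios. Among the markers that rose in these other cell types the ratio was at most 3.01 (tfap2b, an amacrine gene). Markers without a call had log2 differences of up to 2.77 among bipolar and 2.57 among ganglion cell genes, above the 1.83 of pcdh19. The part of such cells in the members' values was not tested.

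**Figure D4:**
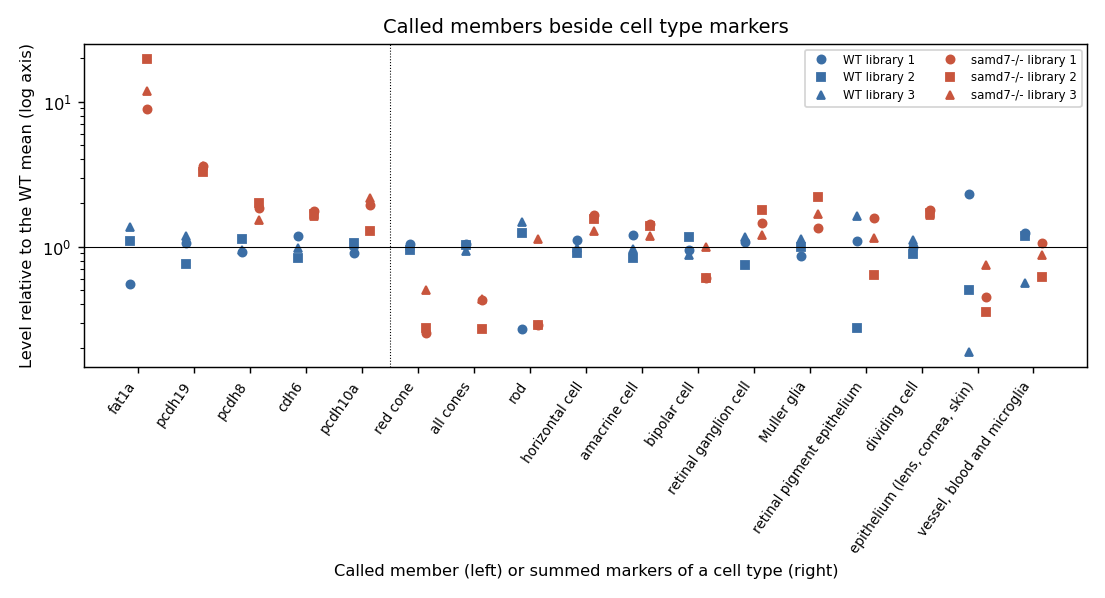
Level in each library relative to the WT mean (log axis) for the 5 members that rose and, right of the dotted line, for the summed markers of each cell type. The mutant-labelled libraries lie above WT for the horizontal, ganglion, glial and dividing cell sums as well as for the 5 members, below WT for the red-cone and all-cone sums, and WT library 1 is high for the epithelium sum.

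Leaving out the 2 libraries that stood apart, an alternative chosen after seeing the data, 2 members were called, fat1a and pcdh8. Then pcdh19 (adjusted p = 0.0962), cdh6 (0.127) and pcdh10a (0.161) missed the threshold in limma, with log2 differences of 1.62, 0.68 and 0.70.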

How the data were processed

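The authors' deposited table gives, for each gene, values for the libraries, genotype means, their log2 ratio and a p-value after adjustment. Per the submitters' processing notes, the tools were STAR 2.7.2b, HTSeq 0.9.1, Trim Galore 0.6.1, R 4.1.3 and DESeq2 1.34.0, with the build danRer10. No source used here gives the annotation or strand setting. The deposited library columns hold a signal: 100% of values above 0 were whole multiples of 1 step per library, to within 0.01 read, so they are counts divided by size factors, and whole reads were recovered. No molecular identifiers are described, so limits from counts (3 counts for a 0) cover counting error only.

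Values were tested as log2(value + 1) with limma 3.58.1 (R 4.3.3, trend and robust options, genotype the only term), for all 9886 genes with at least 10 in at least 3 libraries. On this scale, libraries at 0 can enlarge or reverse the difference of a gene. The difference of pcdh2g8 was 3.49 in limma and 2.17 in edgeR. That of pcdh18b was -1.66, although its mutant-labelled mean was the higher (110.5 against 98.1). For fat3a, without a 0, limma gave the smaller value (1.80 against 2.06). Calls have a Benjamini-Hochberg adjusted p under 0.05. edgeR 4.0.16 and DESeq2 1.42.0 were run on the recovered reads and called 431 and 870 genes, and the tests were tried on simulated data. Named in full are members called, the 10 with the largest differences, the 12 with the highest means, some of those at the filter's edge and a fixed list. Added after their values were seen were cdh7, cdh11, cdh18a, pcdh18a, pcdh18b, pcdh1gc6, pcdh2aa3, pcdh2ab1, pcdh2ab8, pcdh2ab9, pcdh2g6 and pcdh2g17. Members and lists were chosen with earlier results of these data known. Libraries come from separate clutches.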

Additional observations from a re-analysis of the deposited data

How the results depend on the processing

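The number of members called was 5 with either pseudocount, the stricter filter, both other scalings, edgeR and DESeq2. It was 4 with no filter on low values. The labels do not say that a replicate number marks a shared day or batch. Same-numbered libraries did not deviate together over all genes tested (r from -0.03 to 0.05), which cannot exclude a batch that moved some genes. With the replicate number as a block 4 members were called, pcdh10a being lost (adjusted p = 0.0582, limma), and 431 genes in all were called. The count of members was 0 in limma without trend and robust options, where 8 members had an unadjusted p under 0.05 and edgeR and DESeq2 called 5 each, and 27 genes were called in all; the cause was not tested. With 1 library left out it ranged from 1, without mutant-labelled library 1, to 4, without mutant-labelled library 3, and the count over all genes from 225 to 573. Without WT library 2 and mutant-labelled library 3 these were 2 and 294. Fewer samples entered the fits with libraries left out. With all 6 libraries DESeq2 called 870 genes; the cause was not tested.

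Of 423 comparisons of a named member with an alternative 375 kept direction and side of the threshold. A further 26 lost a call, 1 gained one and 21 changed sign, none of these last for a called member. Only the 5 called members could lose a call, each in 17 alternatives. Losses numbered 9 for pcdh10a, 6 for cdh6, 5 for pcdh19, 5 for pcdh8 and 1 for fat1a. With 1 library left out, or both that stood apart, the log2 difference ranged from -2.62 to 0.79 for cdh5, from -0.16 to 2.75 for cdh4, from -0.29 to 0.13 for clstn1, from -0.66 to 0.069 for pcdh15a, from -0.54 to 0.13 for pcdh15b, from -3.06 to 0.019 for pcdh1a4, from -0.53 to 0.86 for pcdh1g29, from -0.20 to 0.62 for pcdh1g33, from -0.13 to 0.54 for pcdh1gc5 and from -3.69 to 0.090 for pcdh2ac. Scaling by totals gave 0.22 for clstn1 and 0.026 for pcdh15b, and pcdh1g29 was at -0.043 with edgeR and -0.044 with DESeq2. Without both libraries clstn1 was at 0.05.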
